A study of Mus musculus with 12 samples.

Results

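The glypicans and syndecans are the cell-surface carriers of heparan sulfate, and their transcripts were measured in newborn liver and lung of *Man1a2* WT and null mice. Members were taken by gene symbol, as *Gpc1* to *Gpc6* and *Sdc1* to *Sdc4*, which gave 10 genes of the 24421 rows listed in each library. The pups came from crosses of *Man1a2*+/- mice carrying Man1a2tm1.1Ahe, a germline allele that lacks exon 2, and were dissected shortly after birth. The 4 groups were WT (*Man1a2*+/+) liver, null (*Man1a2*-/-) liver, WT lung and null lung, each with 3 libraries of polyadenylated RNA from whole tissue, or 12 in all. No group received a treatment, and the tissues were taken from 3 pups of each genotype.

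Heparan sulfate proteoglycans are core proteins with long sulfated sugar chains that hold growth factors such as FGFs, Wnts, hedgehogs and BMPs at the cell surface. Glypicans are fixed to the outer membrane leaflet by a lipid anchor, and enzymes that cut the anchor release them. Syndecans cross the membrane and carry a short cytoplasmic tail that binds scaffold proteins with PDZ domains, and proteases shed their outer part. GPC1 has been named as a candidate susceptibility gene for biliary atresia, the closure of the bile ducts in infants, which is why *Gpc1* was followed here in the liver. *Man1a2* encodes a Golgi mannosidase that trims the N-glycans of secreted and membrane proteins, a different sugar from heparan sulfate.

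The tails of the 4 syndecans end alike, and the end of each coding sequence is shown because scaffold proteins of the syntenin type bind there. The 30 last coding bases of each mouse gene, from the GENCODE M21 transcripts on GRCm38, were as follows, with the last 4 codons and the stop codon in capitals.
Sdc1: cccaccaagcaggagGAGTTCTACGCCTGA
Sdc2: aaggcacccactaagGAGTTTTATGCATAA
Sdc3: cctgacaagcaggagGAGTTCTACGCTTAG
Sdc4: aaagcccccaccaatGAGTTCTACGCATGA
Any pair of syndecans shared between 11 and 14 of the 15 capital bases. Of the 15 bases before them, *Sdc1* shared 12 with *Sdc3*, *Sdc2* shared 11 with *Sdc4*, and every other pair shared 3. Over the aligned coding sequences, the syndecans were between 47.2% and 53.1% identical, and the closest glypicans were *Gpc4* and *Gpc6* at 65.2%. Over all their GENCODE M21 transcripts, untranslated parts included, none of the 45 pairs of members shared a run of 75 bases on either strand.

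The libraries held between 26759463 and 42914295 counts, and levels are given as scaled CPM, a gene's counts relative to the library total after TMM scaling over the 12 libraries. *Man1a2*, the targeted gene, was counted over all its exons. It stood at 87.0, 54.2 and 68.6 CPM in WT liver against 53.7, 48.2 and 50.2 in null liver. In WT lung it stood at 105, 75.5 and 107 CPM against 42.5, 49.8 and 50.2 in null lung. In each tissue the highest null value was under the lowest WT value. Neither difference passed the test (edgeR adjusted p = 0.0809 in liver and 0.0614 in lung), whereas DESeq2 called both (adjusted p = 0.0473 and 0.000287). Without the library labelled null lung 1, edgeR called the fall in lung (log2 fold change -0.95, adjusted p = 0.0043), and without null liver 1 it did not call the difference in liver (-0.50, adjusted p = 0.105).

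A pair of libraries stood apart from the others of their group before any member was compared. The first library of null liver held 9586 CPM of 12 skeletal and cardiac muscle genes, against at most 17.0 CPM in the other 5 livers. Its stellate cell and fibroblast list summed to 2532 CPM against 634 to 814, mainly through *Col1a1*, *Col3a1* and *Des* at 603, 1057 and 453 CPM. *Pdgfra* and *Acta2* were also above the other livers, *Dcn* and *Pdgfrb* lay within their range, and *Lrat* was lowest, at 7.62 CPM. The hepatocyte list of null liver 1, at 181561 CPM, lay within the 141865 to 232630 CPM of the other livers. The library labelled null lung 1 went against its label: its 8 lung epithelium genes summed to 514 CPM against 19376 to 26473 CPM in the other 5 lungs, and *Sftpc*, which encodes surfactant protein C, stood at 26.4 CPM against 11905 to 17384. Of the 8 genes, 7 were lower in null lung 1 than in all 5 other lungs. *Foxj1* was not, at 38.6 CPM against 29.0 to 53.5 CPM. The muscle list reached 22876 CPM in null lung 1, against 241 to 397 CPM in WT lung and 547 to 670 CPM in the other null lungs. Both libraries are shown apart below, the genotype results of the members are given with and without them, and the part that muscle or connective tissue RNA had in the members' levels was not tested. In whole tissue, fewer cells of a type and less RNA per cell cannot be told apart.

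**Figure D1:**
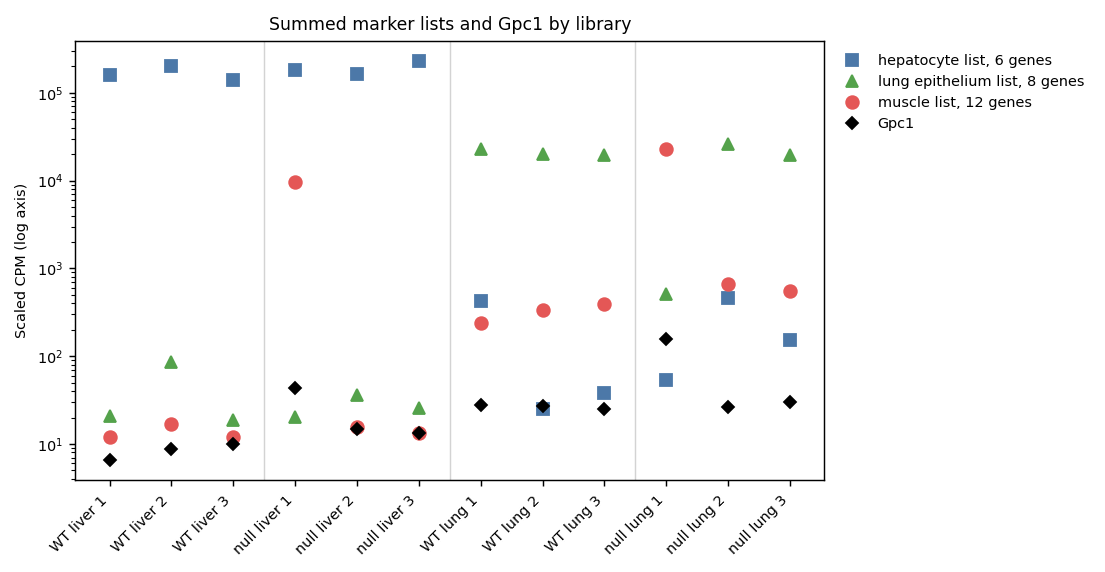
Summed scaled CPM of the hepatocyte, lung epithelium and muscle lists and of *Gpc1* in each of the 12 libraries, on a log axis. The muscle list reached 9586 CPM in null liver 1 and 22876 CPM in null lung 1, the 2 libraries with the highest *Gpc1* levels, and the lung epithelium list fell to 514 CPM in null lung 1.

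*Gpc3* was the most abundant member in newborn liver, and *Sdc1* was the most abundant in newborn lung. Per kilobase of exon, the scale on which genes can be compared, WT liver held 334 ± 50.2 CPM per kb of *Gpc3* (SD, n = 3), 117 ± 28.6 of *Sdc4* and 73.9 ± 14.2 of *Sdc1*. The ranges of *Sdc4* and *Sdc1* overlapped. *Sdc2*, *Sdc3*, *Gpc4*, *Gpc6*, *Gpc1* and *Gpc2* followed in that order, from 31.0 down to 0.327 CPM per kb, and no neighbours among these overlapped. In WT lung the order was *Sdc1* at 149 ± 7.40 CPM per kb, *Gpc3* at 87.0 ± 11.3, *Sdc4* at 67.0 ± 1.09, *Sdc2*, *Gpc4*, *Sdc3*, *Gpc1*, *Gpc6* and *Gpc2*, and the ranges of *Gpc4* and *Sdc3* were the only neighbouring ones to overlap. *Gpc5* came last in all groups, with 0 to 6 counts a library, at or near the limit of 3 counts that a count of 0 allows, so no fold is given for it. The filter on low counts left it out of the edgeR comparisons, in which 9 members were tested.

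Within the families, *Gpc3* made up 93.3% to 95.3% of the summed glypican level per kilobase in WT liver and 79.6% to 83.7% in WT lung. Among the syndecans, *Sdc4* made up 37.7% to 54.5% in WT liver. It led in WT liver 1 and 3, while in WT liver 2 *Sdc1* was slightly ahead, at 38.6%. In WT lung *Sdc1* led with 59.4% to 61.7%. The summed syndecan level was 241 ± 18.4 CPM per kb in WT liver and 246 ± 9.55 in WT lung, and the ranges overlapped. The glypican sum was 354 ± 49.6 in WT liver and 107 ± 10.8 in WT lung, so that syndecans exceeded glypicans by 1.97 to 2.53 times in WT lung and were 0.601 to 0.855 of them in WT liver.

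**Figure D2:**
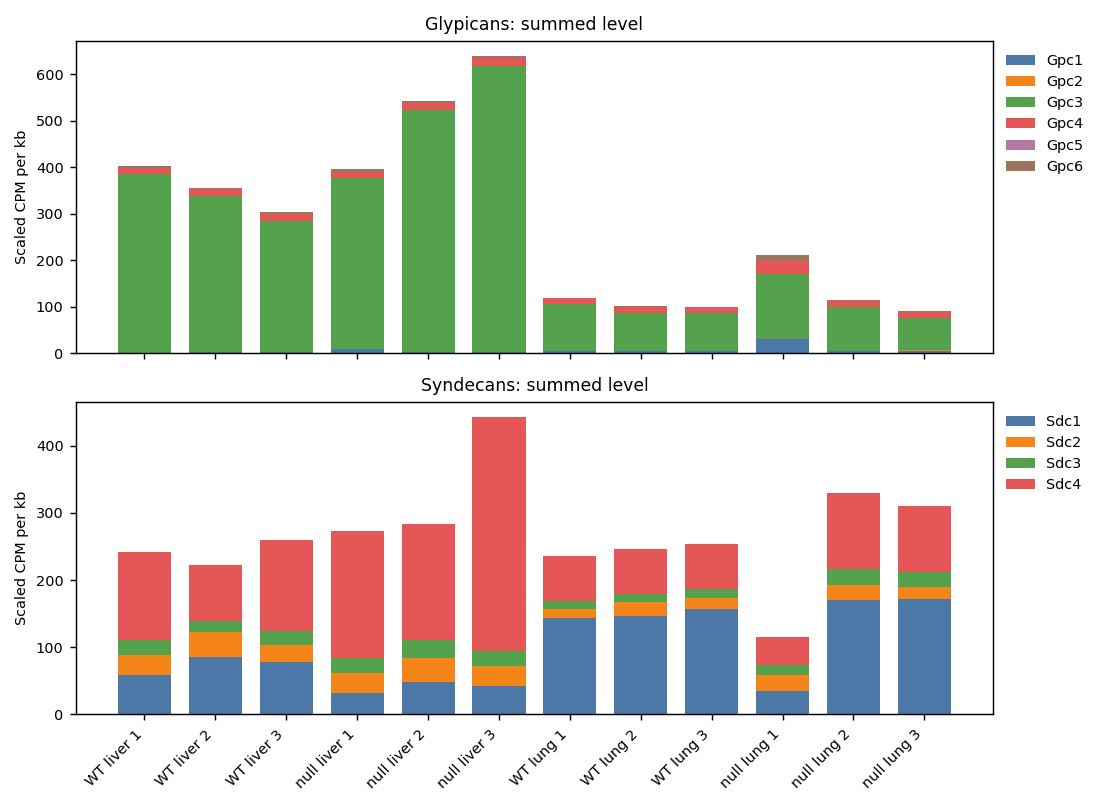
Stacked scaled CPM per kilobase of each glypican (upper panel) and each syndecan (lower panel) in the 12 libraries. *Gpc3* fills 93.3% to 95.3% of the glypican bars in WT liver, the *Sdc4* part grows and the *Sdc1* part shrinks from WT to null liver, and null lung 1 has the smallest syndecan bar at 115 CPM per kb.

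The tissue comparison asked how the carriers differ between the organs at birth. In WT pups 8 of the 9 members tested passed, 3 higher in lung and 5 lower, where 77.0% of all 15635 genes tested were called, 39.8% higher and 37.2% lower. The groups did not overlap for any of the 9, as for 81.3% of all genes tested. For *Gpc4* they nearly touched, at 35.86 CPM in WT lung 2 against 35.89 CPM in WT liver 1. *Gpc1* rose 3.12-fold from liver to lung, from 8.43 ± 1.77 to 26.6 ± 1.14 CPM (edgeR adjusted p = 7e-06), and *Sdc1* rose 2.00-fold, from 281 ± 54.1 to 567 ± 28.2 CPM (edgeR adjusted p = 0.000325). *Gpc2*, a glypican of the developing nervous system, rose by 0.63 on the log2 scale at 1.13 to 2.82 CPM (edgeR adjusted p = 0.0488). That call rested on single libraries, since leaving out WT lung 3 was the only omission that kept it, and exonic bases of *Gpc2* also belong to *Gm43720* on the same strand, so its counts are uncertain.

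*Gpc3*, whose loss in people causes the Simpson-Golabi-Behmel overgrowth syndrome, was 3.88-fold lower in WT lung than in WT liver, at 234 ± 30.5 against 900 ± 135 CPM (edgeR adjusted p = 5.56e-06). *Gpc6* was 3.16-fold lower, at 8.13 ± 1.24 against 25.4 ± 2.63 CPM (edgeR adjusted p = 4.25e-06). *Gpc4*, the neighbour of *Gpc3* on the X chromosome, stood at 34.9 ± 1.40 CPM in WT lung and 36.7 ± 0.947 in WT liver and did not pass (edgeR adjusted p = 0.343). The other syndecans, *Sdc2*, *Sdc4* and *Sdc3*, were lower in lung by 0.90, 0.82 and 0.62 on the log2 scale (edgeR adjusted p = 0.000496, 0.00229 and 0.000701). These syndecan calls depend on the scaling. Scaling to total counts moved the median of all genes tested from 0.04 to 0.83 on the log2 scale, with 4 members called higher (*Gpc1*, *Gpc2*, *Gpc4* and *Sdc1*) and 2 lower (*Gpc3* and *Gpc6*). Relative to that median *Sdc2*, *Sdc4* and *Sdc3* still stood at -0.93, -0.87 and -0.66, but *Sdc3* itself turned to 0.17 and *Gpc4* to 0.71.

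In null pups 3 of 9 members passed between the tissues, where 45.8% of all genes tested were called, with 21.6% lower: *Gpc3*, *Sdc2* and *Sdc4* were lower in lung. The groups did not overlap for 4 of the 9, against 60.3% of all genes tested. *Gpc3* was 4.94-fold lower (edgeR adjusted p = 0.00441), *Sdc4* 2.78-fold lower (edgeR adjusted p = 0.0487) and *Sdc2* 1.49-fold lower (edgeR adjusted p = 0.0348). Liver and lung libraries of the same number deviated together, and with the replicate block *Gpc1* was called 2.47-fold higher in lung (edgeR adjusted p = 0.0172) while *Sdc2* was no longer called (edgeR adjusted p = 0.056), where 45.7% of all genes tested were called. Total-count scaling moved the median of all genes tested from 0.09 to 0.87, and *Sdc2* turned to 0.20 but stood at -0.67 relative to that median. Without both null libraries numbered 1, 6 members passed (62.5% of all genes tested): *Gpc1* and *Sdc1* were 1.95-fold and 3.60-fold higher in lung, and *Gpc3*, *Sdc4*, *Gpc6* and *Sdc2* were 7.19-fold, 2.55-fold, 2.01-fold and 1.65-fold lower (edgeR adjusted p = 7.62e-05 to 0.0126). With 3 libraries a tissue, leaving out any one other than null lung 1 left 1 member called, *Gpc3*, and leaving out null lung 1 gave 5.

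**Figure D3:**
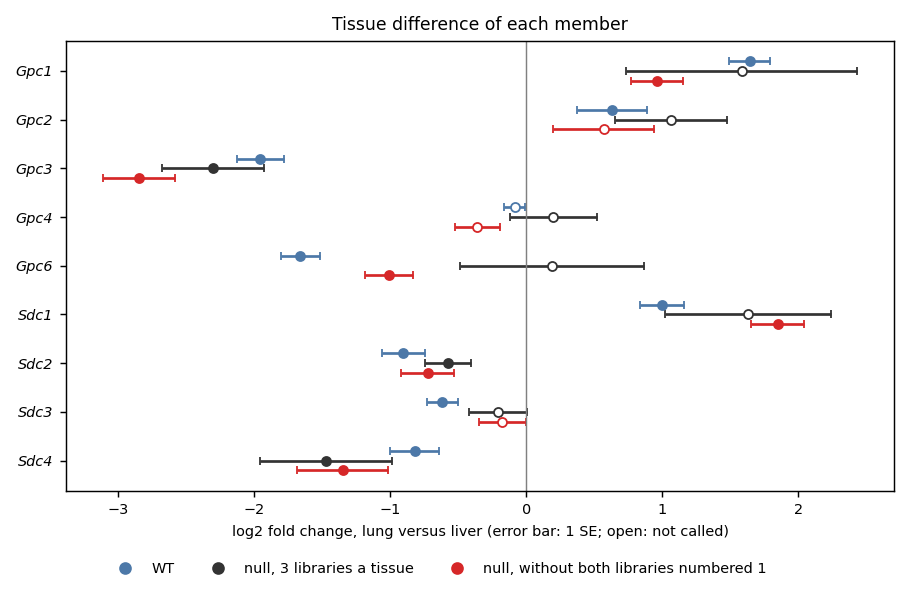
Log2 fold change of lung versus liver for the 9 members tested, with 1 SE, in WT pups, in null pups, and in null pups without both libraries numbered 1. Filled points passed the test; *Gpc3* lies left of zero in each fit, at -1.96 in WT and -2.85 in the smaller null set, while *Gpc6* lies at 0.19 in null pups with all libraries and at -1.01 without the libraries numbered 1.

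In the liver, the comparison of null with WT asked whether loss of *Man1a2* goes with a change in these carriers. *Gpc1* and *Sdc4* rose and *Sdc1* fell, 3 of the 9 members tested, where 26.9% of all 14343 genes tested were called, 13.5% higher and 13.4% lower. The median log2 fold change was 0.25 over the members and 0.02 over all genes tested. DESeq2 called 5 members, adding *Gpc3* and *Gpc6* (adjusted p = 0.0226 and 0.042), where it called 29.8% of all genes tested. With edgeR the share of members called lay near that of all genes.

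*Gpc1*, on chromosome 1 (92831645 to 92860779, plus strand, GRCm38), encodes the glypican named in biliary atresia. It stood at 6.51, 8.79 and 9.99 CPM in WT liver and at 43.9, 14.9 and 13.2 CPM in null liver. All 3 null libraries lay above all WT libraries, and null liver 1 alone was 3.12 times the mean of the other 2. The rise was 2.83-fold with all libraries (SE 0.45 on the log2 scale, edgeR adjusted p = 0.0444) and 1.68-fold without null liver 1 (0.75 ± 0.21 SE, edgeR adjusted p = 0.0334). The call was lost when WT liver 1, 2 or 3 was left out (edgeR adjusted p = 0.135, 0.122 and 0.101), with a log2 fold change of 1.35 to 1.65, and the exact two-sided permutation test gave 0.1, the smallest p that 3 against 3 allows. Of the exonic bases of *Gpc1*, 977 also lie in exons of *Ankmy1* on the opposite strand, and whether reads were counted by strand is not given in the sources used here.

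The genes whose profile lay nearest to *Gpc1* over the 6 livers, of 12594 compared by root-mean-square difference of centred log2(CPM + 0.5), were *Ncam1*, *Lox*, *Mef2c*, *Samd4* and *Thbs2*. Their distances were 0.114, 0.213, 0.240, 0.253 and 0.257, against a spread of 0.847 for *Gpc1* itself. They were chosen on a profile that is highest in null liver 1, so a peak in that library follows from the choice. Each of the 5 had it, for example *Ncam1* at 22.9 CPM against 3.34 to 6.52 CPM in the other livers. *Ncam1* encodes a cell adhesion molecule of nerve and developing muscle, *Lox* an enzyme that crosslinks collagen, and *Mef2c* a transcription factor of muscle and heart.

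*Sdc4* (chromosome 2, 164424247 to 164443887, minus strand) encodes a syndecan of focal adhesions. Its levels were 336, 214 and 343 CPM in WT liver and 483, 439 and 889 CPM in null liver, with no overlap, and the highest value belonged to null liver 3. The rise was 2.02-fold (log2 fold change 1.02 ± 0.31 SE, edgeR adjusted p = 0.0475) and 2.24-fold without null liver 1 (edgeR adjusted p = 0.0309). Without null liver 3 the log2 fold change was 0.62 and not called (edgeR adjusted p = 0.0951), and leaving out any WT liver also ended the call (edgeR adjusted p = 0.0931 to 0.138).

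*Sdc1* (chromosome 12, 8771323 to 8793715, plus strand) encodes the main syndecan of epithelia and of plasma cells, and in hepatocytes it serves the uptake of lipoprotein remnants. WT liver held 222, 328 and 294 CPM and null liver 119, 186 and 163 CPM, again without overlap. The fall was 1.80-fold (log2 fold change -0.85 ± 0.21 SE, edgeR adjusted p = 0.0215) and 1.60-fold without null liver 1 (edgeR adjusted p = 0.0283), the library with the lowest level. It was not called without WT liver 2 or WT liver 3 (edgeR adjusted p = 0.0755 and 0.0793). The 8 bile duct cell genes summed to 111 to 153 CPM in WT liver and 104 to 213 CPM in null liver, but *Spp1* alone gave 83.5 to 117 and 71.6 to 157 CPM of these sums. *Krt19*, a keratin of bile duct cells, stood at 6.68 to 10.6 CPM in WT liver and 5.49 to 12.4 CPM in null liver. Of the plasma cell list, *Jchain* stayed at or under 0.206 CPM in all livers. *Mzb1* stood at 6.40 to 7.28 CPM in WT liver and 3.78 to 8.60 CPM in null liver. *Xbp1* stood at 159 to 179 CPM in WT liver and 152 to 236 CPM in null liver. The part of these cells in the fall was not tested.

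As *Sdc4* rose and *Sdc1* fell, the makeup of the syndecans differed between the genotypes in liver. *Sdc4* made up 37.7% to 54.5% of the summed syndecan level per kilobase in WT liver and 60.8% to 78.7% in null liver. *Sdc1* made up 24.1% to 38.6% in WT liver and 9.65% to 17.2% in null liver. Neither share overlapped between the genotypes.

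The other liver members did not pass with all libraries. *Gpc3*, on the X chromosome (52272426 to 52613950, minus strand), stood at 1032, 905 and 762 CPM in WT liver and at 991, 1400 and 1657 CPM in null liver. The null libraries 2 and 3 lay above every WT library and null liver 1 lay among them. Its log2 fold change was 0.58 ± 0.21 SE (edgeR adjusted p = 0.0775), and without null liver 1 *Gpc3* was called 1.71-fold higher (edgeR adjusted p = 0.0163). Without that library 4 of 9 members passed, *Gpc1*, *Gpc3* and *Sdc4* higher and *Sdc1* lower, where 23.8% of all genes tested were called.

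*Gpc6* and *Sdc3* had null libraries that all lay above the WT libraries without passing the test. *Gpc6* stood at 24.7, 23.3 and 28.4 CPM in WT liver and 39.1, 31.4 and 30.2 in null liver (log2 fold change 0.39, edgeR adjusted p = 0.0639, and 0.28 with 0.166 without null liver 1). *Sdc3*, a syndecan best known from nerve and muscle, stood at 128.63, 100.5 and 125 CPM in WT liver. In null liver it stood at 129.45, 161 and 132 CPM (log2 fold change 0.25, edgeR adjusted p = 0.236, and 0.32 with 0.173 without null liver 1). WT liver 1 and null liver 1 were thus nearly level for *Sdc3*. With *Gpc6* and *Sdc3* counted, 5 of the 9 members did not overlap between the genotypes, where 46.6% of all genes tested did not. Without null liver 1 it was 7 of 9, against 55.0% of all genes tested. *Gpc4*, *Gpc2* and *Sdc2*, a syndecan of fibroblasts and hepatocytes, had overlapping groups and log2 fold changes of 0.11, -0.20 and 0.04 (edgeR adjusted p = 0.451, 0.619 and 0.851), and under total-count scaling *Gpc4* and *Sdc2* turned to -0.03 and -0.08. Without null liver 1 they stood at 0.18, -0.19 and 0.08 (edgeR adjusted p = 0.31, 0.709 and 0.727).

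**Figure D4:**
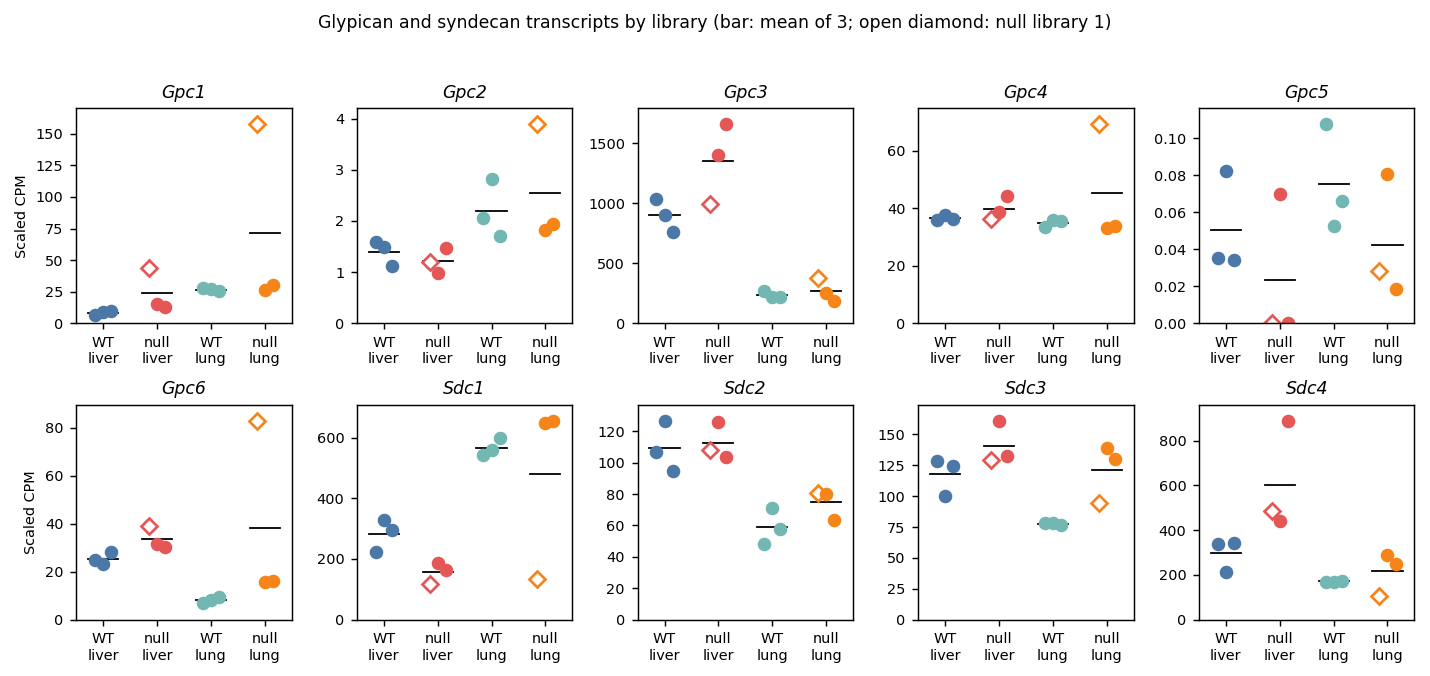
Scaled CPM of each of the 10 members in each library of the 4 groups, with the group mean as a bar and null liver 1 and null lung 1 as open diamonds; each panel has its own linear axis from 0. *Gpc1* stands highest in the open diamonds, at 43.9 and 158 CPM, and *Sdc1* stands at 133 CPM in null lung 1 against 544 to 656 CPM in the other lungs.

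In the lung, no member passed the comparison of null with WT when all libraries were used, where 0.327% of all 15591 genes tested were called. At an unadjusted p under 0.05 there were 2 members and 3898 genes in all, and DESeq2 called 2, *Gpc6* and *Sdc3*, both higher (15.1% of all genes tested were called by DESeq2). Without the library labelled null lung 1, 3 of 9 members passed, all higher, where 37.0% of all 15885 genes tested were called and 18.0% were called higher. They were *Gpc6*, *Sdc3* and *Sdc4*. The groups did not overlap for 2 of 9 members with all libraries (35.9% of all genes tested) and for 4 of 9 without null lung 1 (61.6%). The median log2 fold change was then 0.19 over the members and -0.01 over all genes tested. Marker sums of other cells also differed in these lungs: the muscle list stood at 241 to 397 CPM in WT lung and 547 to 670 CPM in null lung 2 and 3, and the neutrophil list at 181 to 295 and 473 to 487 CPM. Most of that neutrophil sum was *S100a8* and *S100a9*, at 181 to 182 and 225 to 232 CPM in null lung 2 and 3. *Ltf*, *Ngp* and *Camp* of the same list overlapped between the genotypes. The nerve and Schwann cell list was lower, at 46.0 to 58.9 CPM against 29.7 to 33.7 CPM. The part of these cells in the members' levels was not tested.

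*Gpc6* (chromosome 14, 116925315 to 117976544, plus strand) encodes a glypican that favours hedgehog signalling in growth plates. It stood at 6.88, 8.16 and 9.35 CPM in WT lung and at 82.9, 15.7 and 16.0 CPM in null lung. Every null library lay above every WT library, and null lung 1 stood at 5.23 times the mean of the other 2. With all libraries the log2 fold change was 2.25 ± 0.72 SE (edgeR adjusted p = 0.14), and without null lung 1 *Gpc6* was called 1.94-fold higher (0.96 ± 0.17 SE, edgeR adjusted p = 0.00493).

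*Sdc3* (chromosome 4, 130792537 to 130826319, plus strand) held 78.3, 78.5 and 76.4 CPM in WT lung and 94.5, 139 and 130 CPM in null lung. The groups did not overlap, and null lung 1 was the lowest of the null libraries. Its log2 fold change was 0.64 ± 0.17 SE with all libraries (edgeR adjusted p = 0.102) and 0.79 ± 0.09 SE, or 1.72-fold, without null lung 1 (edgeR adjusted p = 0.00114). *Sdc3* shares 415 exonic bases with the antisense gene *Gm26716*.

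*Sdc4* stood at 168, 170.5 and 174 CPM in WT lung and at 106, 291 and 250.5 CPM in null lung. The library labelled null lung 1 lay below the WT libraries and the other null libraries lay above them. The log2 fold change was 0.34 ± 0.36 SE with all libraries (edgeR adjusted p = 0.585), and without null lung 1 *Sdc4* was called 1.58-fold higher (0.66 ± 0.10 SE, edgeR adjusted p = 0.00299).

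*Gpc1* and *Sdc1*, which changed in liver, were not called in lung. *Gpc1* stood at 27.5, 26.9 and 25.3 CPM in WT lung and at 158, 26.6 and 30.2 CPM in null lung. A single library set the difference: the log2 fold change was 1.44 ± 0.72 SE (edgeR adjusted p = 0.265) with null lung 1 and 0.09 ± 0.11 SE (edgeR adjusted p = 0.56) without it. *Sdc1* stood at 544, 558 and 598 CPM in WT lung and at 133, 647 and 656 CPM in null lung. Its log2 fold change moved from -0.25 (edgeR adjusted p = 0.812) to 0.19 (edgeR adjusted p = 0.15) when null lung 1 was left out.

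The remaining members of the lung, *Gpc2*, *Gpc3*, *Gpc4* and *Sdc2*, overlapped between the genotypes with and without null lung 1. In that library *Gpc4* stood at 69.2 CPM, against 33.1 to 35.9 in the other lungs, and *Gpc3* stood at 377 CPM, against 188 to 269. Without it their log2 fold changes were -0.22, -0.09, -0.07 and 0.28 for *Gpc2*, *Gpc3*, *Gpc4* and *Sdc2* (edgeR adjusted p = 0.251 to 0.659). With it, the first 3 were positive, at 0.22, 0.23 and 0.39.

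**Figure D5:**
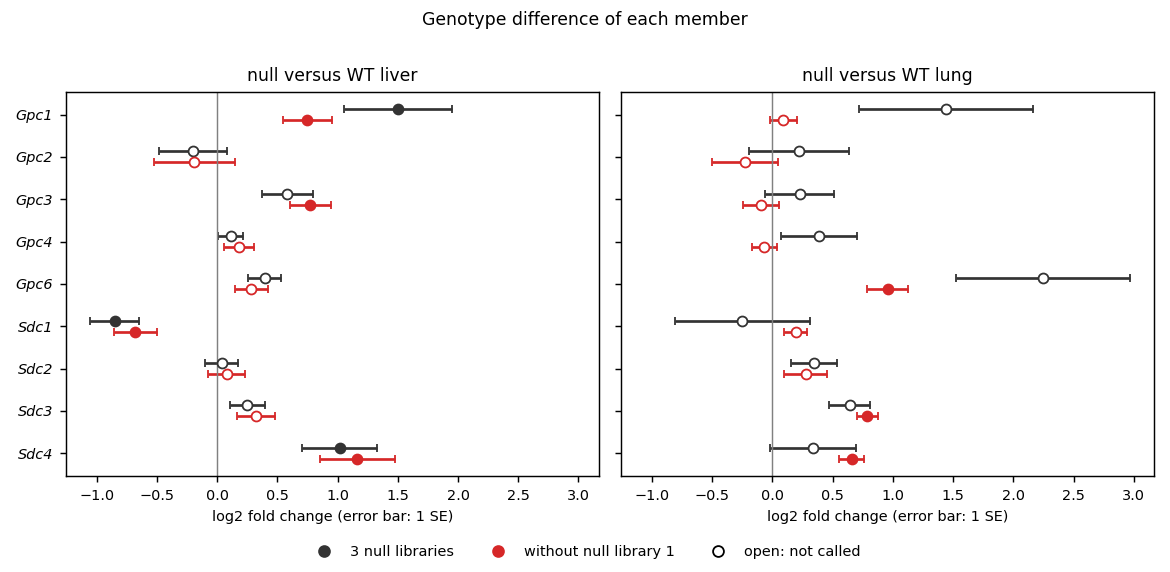
Log2 fold change of null versus WT with 1 SE for the 9 members tested in liver (left) and lung (right), with all 3 null libraries and without the null library numbered 1; filled points passed the test. In liver *Gpc1* moves to 0.75 without null liver 1 and stays filled, and in lung *Gpc1* moves from 1.44 to 0.09 while *Gpc6*, *Sdc3* and *Sdc4* become filled.

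Whether the genotype difference itself differed between liver and lung was tested as an interaction over the 12 libraries. No member passed in edgeR or in DESeq2, where 0.371% of all 16155 genes tested were called by edgeR and 3.94% by DESeq2. The member with an unadjusted p under 0.05 was *Gpc6* in each tool, and edgeR gave such a p to 2239 genes in all. Without both null libraries numbered 1, still none passed, where 5.18% of all 16216 genes tested were called. In that fit 5 members had an unadjusted edgeR p under 0.05, as did 3355 of all genes tested. The lowest adjusted p was then that of *Sdc1*, whose lung minus liver difference was 0.88 ± 0.24 SE (edgeR adjusted p = 0.0615). *Gpc6* followed at 0.68 ± 0.21 SE (edgeR adjusted p = 0.0883) and *Gpc3* at -0.86 ± 0.28 SE (edgeR adjusted p = 0.0993). The rise of *Gpc1* and fall of *Sdc1* in liver are therefore not shown to be particular to liver. With the replicate block 0.00% of the genes tested, none at all, were called (2224 genes at an unadjusted p under 0.05).

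For the members other than *Gpc1* the nearest profiles were taken over all 12 libraries. They were *Zfp90* and *Zmat3* for *Gpc2*, *Pgam1* and *Pgm2* for *Gpc3*, *Pebp1* and *Rpap3* for *Gpc4*, and *Pglyrp1* and *Itih5* for *Gpc6*. For the syndecans they were *Ctsc* and *Dcxr* (*Sdc1*), *Pccb* and *Med7* (*Sdc2*), *Usp38* and *Lrrc47* (*Sdc3*), and *Atg2a* and *Heatr1* (*Sdc4*). The closest of these was *Usp38* to *Sdc3*, with a root-mean-square difference of 0.107 against a spread of 0.352 for *Sdc3*, and the farthest was *Itih5* to *Gpc6*, at 0.287 against 0.963. Libraries of 1 tissue share composition, so these distances are a description.

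The genes that build, edit and bind the chains were counted next. Of 85 such genes in 6 lists, 76 were tested in liver and 25 passed, 14 higher and 11 lower. The count was 22 without null liver 1, and it dropped to 14, 16 and 11 without WT liver 1, 2 and 3. Of the genes named below as called in liver, *Xylt1* and *Hspg2* were not called without null liver 1, and the others were called in the same direction. In lung none of 79 passed with all libraries, and without null lung 1 34 of 80 passed, 14 higher and 20 lower. Of all genes tested, 26.9% were called in liver and 37.0% in the smaller lung set.

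The linker that joins every chain to its core protein is built by a chain of sugar transferases, of which 3 of 12 genes were called in liver. *B3galt6*, which adds the second galactose, fell from 10.5 ± 0.967 to 4.14 ± 0.373 CPM (log2 fold change -1.35, edgeR adjusted p = 0.00325), and without null lung 1 it also fell in lung (-1.43, edgeR adjusted p = 0.00235). *Xylt1*, the xylosyltransferase that starts the linker, rose by 0.87 in liver (edgeR adjusted p = 0.0378). Without null lung 1 it also rose in lung, from 1.52 ± 0.266 CPM to 3.09 and 3.04 CPM (edgeR adjusted p = 0.0135), but in liver it was not called without null liver 1 (edgeR adjusted p = 0.0839). The median of this list was -0.02 in liver.

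Of the 14 heparan sulfate polymerases and sulfotransferases tested in liver, 3 rose and 3 fell. *Ext1*, a subunit of the chain polymerase, rose from 49.2 ± 2.18 to 76.7 ± 8.45 CPM (edgeR adjusted p = 0.00741), and its partner *Ext2* had a log2 fold change of 0.14 (edgeR adjusted p = 0.437). *Hs3st1*, which makes the antithrombin-binding site, had the highest rise, from 0.888 to 2.62 CPM. *Hs2st1*, the 2-O-sulfotransferase, fell from 29.5 ± 3.05 to 17.8 ± 3.67 CPM (edgeR adjusted p = 0.0166), and *Glce*, the epimerase that acts before it, fell by 0.62 on the log2 scale (edgeR adjusted p = 0.00733). *Ndst1* and *Extl3* had log2 fold changes of 0.00 and -0.16 (edgeR adjusted p = 0.975 and 0.271).

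In lung without null lung 1, 2 of 18 genes of that list rose and 3 fell. *Hs2st1* fell by 0.71 (edgeR adjusted p = 0.0146) and *Ndst1* by 0.57 (edgeR adjusted p = 0.00541). *Hs3st1*, which rose in liver, fell here by 0.67 (edgeR adjusted p = 0.0172). *Hs3st3a1* had the highest rise, at 0.85 (edgeR adjusted p = 0.0439). *Ext1*, *Ext2*, *Extl3* and *Glce* were not called there, with log2 fold changes from -0.21 to 0.27.

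Among the 18 genes of editing, shedding and breakdown tested in liver, 3 rose and 3 fell. *Notum*, a carboxylesterase first described as a cutter of glypican anchors and since known to remove the lipid of Wnt proteins, rose by 1.58 at a low level, from 0.439 to 1.32 CPM (edgeR adjusted p = 0.0242). *Gpld1*, a phospholipase made by hepatocytes that cuts lipid anchors, rose by 1.02 on the log2 scale, from 384 ± 52.8 to 780 ± 85.9 CPM (edgeR adjusted p = 0.00505), and was called without null liver 1 too (1.11 on the log2 scale, edgeR adjusted p = 0.00449). *Sgsh*, a lysosomal sulfatase of heparan sulfate, fell by 1.01 in liver (edgeR adjusted p = 0.00921) and, without null lung 1, in lung from 15.2 ± 1.64 CPM to 5.86 and 7.47 CPM (edgeR adjusted p = 0.00288). *Adam17*, a sheddase of syndecans, had a log2 fold change of -0.29 in liver (edgeR adjusted p = 0.0512).

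The extracellular sulfatases *Sulf1* and *Sulf2* remove 6-O-sulfates from finished chains, and their values turned on single libraries. In liver their log2 fold changes were 0.52 and 0.03 with all libraries (edgeR adjusted p = 0.506 and 0.957) and -0.47 and -0.59 without null liver 1 (edgeR adjusted p = 0.206 and 0.05), when *Sulf2* just passed. In lung without null lung 1 they fell by 1.18 and 0.60 (edgeR adjusted p = 0.0211 and 0.00742).

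Of 9 genes whose proteins bind syndecan tails or act with them, 3 rose and 1 fell in liver, and the same split was found in lung without null lung 1. *Sdcbp*, which encodes syntenin and binds the tail end shown above, rose by 0.43 in liver, from 199 ± 18.3 to 269 ± 5.57 CPM (edgeR adjusted p = 0.0233), and by 0.55 in the smaller lung set (edgeR adjusted p = 0.00744). *Synj2bp*, a PDZ protein of the mitochondrial surface, fell by 0.85 in liver (edgeR adjusted p = 0.00453) and by 1.56 in the smaller lung set (edgeR adjusted p = 0.000588). *Tiam1*, a Rac activator, rose by 0.57 and 0.82 (edgeR adjusted p = 0.0232 and 0.0149), and *Sdcbp2* rose by 1.11 in the smaller lung set (edgeR adjusted p = 0.0119).

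Of 7 other proteoglycans that carry heparan sulfate, 3 rose and 1 fell in liver. *Col18a1*, a collagen of basement membranes, rose from 981 ± 167 to 1608 ± 269 CPM (edgeR adjusted p = 0.0279), and *Hspg2*, which encodes perlecan, rose by 0.61 (edgeR adjusted p = 0.0293) but not without null liver 1 (0.51, edgeR adjusted p = 0.0598). *Agrn*, which encodes agrin, was called without null liver 1 (0.58, edgeR adjusted p = 0.0291) and not with it (edgeR adjusted p = 0.0871). *Nrp1*, a VEGF and semaphorin receptor, fell by 0.67 in liver (edgeR adjusted p = 0.00517) and by 1.05 in lung without null lung 1 (edgeR adjusted p = 0.000829). In that lung set *Tgfbr3* rose by 1.13 (edgeR adjusted p = 0.00221), and *Hspg2* and *Agrn* by 0.59 and 0.52 (edgeR adjusted p = 0.0254 and 0.0152).

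The chondroitin list, the sister chains that some syndecans also carry, had 2 of 16 genes called in liver, both lower. *Chst13*, a 4-O-sulfotransferase, fell from 9.82 ± 0.654 to 3.28 ± 0.619 CPM (edgeR adjusted p = 0.0031). In lung without null lung 1, 7 of 15 genes fell and 3 rose. The extremes were *Chsy3*, a chondroitin polymerase, at -1.73 and *Chst15* at 1.29 (edgeR adjusted p = 0.00093 for each), and the median of the list was -0.31 against -0.01 over all genes tested.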

How the data were processed

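The authors prepared stranded poly(A) libraries from total RNA of liver and lung, sequenced 75 bp pairs and deposited raw counts per gene symbol, with 1 table per library. The submitters' processing notes name STAR 2.5.2a, FastQC, DESeq2 and mm10; the counting program, the annotation and the use of strand are not given in the sources used here. Those deposited counts went into edgeR 4.0.16 under R 4.3.3 (filterByExpr, TMM, quasi-likelihood test, Benjamini-Hochberg adjustment over all genes tested), and a gene was called at an adjusted p under 0.05 and at least 1.2-fold. DESeq2 1.42.0 was an alternative. Each SE was taken as the log2 fold change divided by the root of its F statistic. Exact permutation tests used log2(CPM + 0.5). Positions, lengths and coding sequences came from GENCODE M21 on GRCm38, and coding sequences were aligned with mafft 7.526. Scripts were tested on simulated data. No pair of libraries was a copy. The study names liver and lung of 3 pups of each genotype, but neither its text nor the labels tie a library number to a pup. Deviations of same-numbered liver and lung libraries from their group means correlated at 0.18 to 0.47. A fit with the number as a block is therefore given where it changes a call between tissues. Replicates within a group are separate pups. A total of 27 rows carried dates in place of gene names and none is named here.

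Members and lists were chosen with earlier results of these data known. The text names all members, *Man1a2*, 14 fixed pathway genes, the called gene of each pathway list with the largest rise and fall in each tissue, the nearest profiles (5 for *Gpc1* over the livers, 2 for each other member over 12 libraries, among genes with mean log2(CPM + 0.5) of at least 1) and marker genes by list. A gene that this rule names is not reported here.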

Additional observations from a re-analysis of the deposited data

How the results depend on the processing

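Of the member results under the alternatives, 688 kept their direction and call, 48 lost the call, 20 gained it and 27 turned direction; the cause was not tested. Scaling to total counts and leaving out both null libraries numbered 1 were chosen after seeing the data. In liver, 3 members were called; DESeq2 called 5, upper-quartile factors, total counts and a filter of at least 1 count in all called 1 each, a fit of all 12 libraries called 0, and leaving out 1 library gave 0 to 4. In lung, 0 were called; DESeq2 and the fit of all 12 libraries called 2 each, and leaving out 1 library gave 0 to 3. In WT pups, 8 were called between tissues and 4 in the fit of all 12 libraries. In null pups, 3 were called between tissues, 1 with at least 1 count in all, 5 in the fit of all 12 libraries, 6 without both null libraries numbered 1, and 1 to 5 when 1 library was left out. Pathway genes called were 25 in liver (11 to 22 when 1 library was left out) and 0 in lung (13 by DESeq2, 0 to 34 when 1 library was left out, the highest without null lung 1).

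In liver, *Gpc4* turned to -0.027 under total counts and *Sdc2* to -0.069 with upper-quartile factors and -0.084 under total counts, and *Sdc2* ranged from -0.070 to 0.14 when 1 library was left out. In lung, *Gpc2*, *Gpc3*, *Gpc4* and *Sdc1* ranged from -0.22 to 0.44, -0.094 to 0.43, -0.067 to 0.58 and -0.54 to 0.19 when 1 library was left out. Between tissues in WT pups, *Gpc4* turned to 0.71 and *Sdc3* to 0.17 under total counts. Between tissues in null pups, *Sdc2* turned to 0.20 and *Sdc3* to 0.56 under total counts, *Gpc6* to -0.29 with the replicate block, and *Gpc4* and *Gpc6* to -0.36 and -1.01 without both null libraries numbered 1; they ranged from -0.23 to 0.37 and -1.06 to 0.55 when 1 library was left out. For the difference between tissues, *Gpc1* turned to 0.063 with upper-quartile factors, *Gpc2* and *Gpc4* turned to -0.029 and -0.25 without both null libraries numbered 1, and *Gpc1*, *Gpc2* and *Gpc4* ranged from -1.38 to 0.69, -0.0023 to 0.66 and -0.16 to 0.47 when 1 library was left out.

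Upper-quartile factors and total counts moved the median of all genes in the liver comparison by -0.11 and -0.13, and total counts moved that of the lung comparison by -0.12. Deviations of WT and null libraries of the same number correlated at -0.04 to 0.14. Such values cannot show whether these libraries share more than a number, and the labels do not say. With the replicate block, 2 members were called in liver, *Sdc1* and *Sdc4*, 0 in lung, 8 between tissues in WT pups, 3 in null pups and 0 for the difference between tissues; beyond the calls given in the report, the block changed that of *Gpc1* in liver (edgeR adjusted p = 0.0937). With 3 libraries a group, 1 of which stands apart in each null group, a p that misses the threshold does not show that members did not differ.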

Other observations

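Between WT lung and WT liver, the genes that build and bind the chains were mostly higher in lung. Of 80 genes of the 6 lists tested, 46 were higher and 16 lower, where 77.0% of all genes tested were called, and the median log2 fold change was 0.48 against 0.04 over all genes tested. The chondroitin list had 12 of 16 genes higher in lung and 1, *Chst13*, lower. The tail partners had 7 of 9 higher and 0 lower. Of the other proteoglycans, 6 of 7 were higher in lung and *Col18a1* was lower, at 131 ± 16.1 CPM against 981 ± 167 CPM. The list of editing, shedding and breakdown was split, with 8 higher and 8 lower among 19. In it *Gpld1* stood at 2.97 ± 0.904 CPM in WT lung against 384 ± 52.8 in WT liver, and *Notum* at 9.46 ± 1.82 against 0.439 ± 0.0467. These splits were computed with TMM scaling, and scaling to total counts moves the median of all genes by 0.79 on the log2 scale towards lung.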
